A study of Mus musculus with 12 samples.

Results

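The 10 genes described here mark mature neurons: Snap25, Syt1, Syp and Syn1 of the vesicle release machinery, Camk2a, Nrgn and Vsnl1 of calcium signalling, and Kif5a, Nefl and Nefm of the axon. They were taken by name from the deposited table, where each of the 10 has 1 entry among 55421 named entries and 55862 in all. The series sequenced RNA of mouse brain cells (strain C57BL/6) in 12 libraries, 3 for each of 4 groups that share strain and tissue label. The A-iSC group (A-iSCs in the titles) held cells grown from astrocytes as 3D spheres for 5 days. Progenitor cells taken from the brain made up P56-NSC and P0-NSC, the positive controls of the design, whose labels give no age beyond those names. The AST group held astrocytes at 0 days of incubation, the negative control. The labels do not name an inducing agent, a medium or a sort, and they leave out whether replicate libraries are separate cultures or animals. All p-values therefore rest on library-to-library spread that could be purely technical.

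A nerve terminal releases transmitter when a loaded vesicle fuses with its membrane. SNAP-25 is the membrane SNARE protein of that fusion, synaptotagmin-1 is its calcium sensor, synaptophysin is the abundant membrane protein of the vesicle, and synapsin-1 tethers vesicles to each other and to actin. On the receiving side the alpha subunit of calcium/calmodulin kinase II and neurogranin, which holds calmodulin at low calcium, act in dendritic spines of forebrain neurons, and visinin-like 1 is a neuronal calcium sensor of the cytosol. Kif5a is the neuron-restricted heavy chain of kinesin-1, the motor of axonal transport, and the light and medium neurofilament chains build the axon's intermediate filaments. Genes of this kind come up as neurons mature, and many of them are silenced outside neurons by the repressor REST, which binds the RE1 element.

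The proximal promoters show that the genes do not share 1 layout. RefSeq start sites (GRCm38.p6) were matched for 5 of the 10 genes, with 7 windows of 250 bases before the start. Of these, 3 are printed because they differ in base composition and in motifs although all 3 genes had their highest level in the same group. Their RefSeq starts lie inside the gene spans given in the next paragraph, so the printed windows reach into those spans. The marked Syp and Nrgn matches lie inside the spans. Capitals mark matches, on either strand, to the GC box GGGCGG, the core TGACGT of the cAMP response element, and the 2 parts of the RE1 element, AGCACC and GGACAG.
Syn1, chrX:20920919-20921168, minus strand: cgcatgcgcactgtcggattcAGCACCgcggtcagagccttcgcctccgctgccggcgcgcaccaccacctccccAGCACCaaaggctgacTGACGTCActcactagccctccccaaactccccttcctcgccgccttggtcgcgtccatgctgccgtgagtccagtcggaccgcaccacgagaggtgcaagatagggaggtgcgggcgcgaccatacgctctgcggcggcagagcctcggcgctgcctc
Syp, chrX:7638330-7638579, plus strand: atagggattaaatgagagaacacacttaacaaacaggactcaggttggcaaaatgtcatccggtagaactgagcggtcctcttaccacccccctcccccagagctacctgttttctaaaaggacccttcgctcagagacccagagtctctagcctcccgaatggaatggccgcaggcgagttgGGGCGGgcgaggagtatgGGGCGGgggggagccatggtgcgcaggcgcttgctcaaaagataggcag
Nrgn, chr9:37552746-37552995, minus strand: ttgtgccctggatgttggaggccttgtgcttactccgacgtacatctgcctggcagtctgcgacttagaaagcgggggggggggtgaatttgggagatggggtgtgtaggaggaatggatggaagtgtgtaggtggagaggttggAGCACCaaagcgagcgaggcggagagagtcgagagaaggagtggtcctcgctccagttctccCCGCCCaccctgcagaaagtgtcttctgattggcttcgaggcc
The Syn1 window had 68.0% G and C with 27 CG dinucleotides, the Nrgn window 58.4% with 11, and the Syp window 56.4% with 11, beside medians of 52.4% and 6 over all 32851 windows of this length. GGGCGG was in 4 of the 7 windows (Nrgn, Syp and 1 window each of Syt1 and Vsnl1) and in 32.7% of all windows. TGACGT was in 1 of the 7, that of Syn1, and in 6.47% of all. AGCACC was in 2 (Nrgn and Syn1) and in 13.4% of all, and GGACAG in 1 (Syt1) and in 18.7% of all. The 2 RE1 parts set 2 bases apart, AGCACCNNGGACAG, were in 0 of the 7 windows and in 0.0457% of all, and TATAAA in 0 and 12.4%. Only exact matches were sought, so a site that departs by 1 letter goes unmarked, as does AGCACCgcggtcag in the Syn1 window. These matches describe letters in the windows and were not tested against binding.

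In the coordinates of the table, which are those of GRCm38, Snap25 lies at chr2:136713453-136782428 (plus strand), Syt1 at chr10:108497650-109010982 (minus), Syp at chrX:7638471-7653256 (plus), Syn1 at chrX:20860511-20921004 (minus), Nrgn at chr9:37544492-37552904 (minus), Vsnl1 at chr12:11325242-11436613 (minus) and Kif5a at chr10:127225696-127263348 (minus), and Camk2a is on chromosome 18. Nefl at chr14:68083863-68089095 (plus) and Nefm at chr14:68082590-68124846 (minus) are neighbours on opposite strands whose annotated exons share 1108 bases. The library kit is not stated to mark strand, so reads in the shared bases cannot be told apart, and Nefl and Nefm are uncertain to that extent. The exons of Syp and the antisense gene Gm14703 share 875 bases, with Gm14703 listed at 0 to 0.336 FPKM. Timp1 lies within the span of Syn1 on the other strand and shares 0 exon bases with it.

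Values are FPKM (fragments per kilobase of gene length, scaled to library size) as the authors deposited them, and whole reads recovered from them numbered 17077780 to 24452419 per library. Changes are differences of log2(FPKM + 1) between group means with their standard error (SE), from limma over 15747 genes in all 12 libraries, and a gene counted as called when its Benjamini-Hochberg adjusted p was below 0.05. The added 1 understates changes of genes below about 1 FPKM. All 10 genes passed the filter on low values, 1 FPKM in at least 3 libraries. Of them, 7 were under 1 FPKM in every A-iSC library and 8 in every AST library. Snap25, Syt1, Camk2a, Nrgn, Nefl and Vsnl1 were under it in both cultures and passed through the NSC libraries alone. For these genes the filter favoured calls of NSC above the cultures. In bulk samples fewer cells of a type and less RNA per cell cannot be told apart.

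Against the labels, the marker lists gave a mixed account. Astrocyte markers (12 genes) summed to 1598 to 3009 FPKM in A-iSC, 5402 to 5884 in P56-NSC, 404 to 473 in P0-NSC and 214 to 236 in AST, where the level was lowest. Stem and progenitor markers (14 genes) summed to 1821 to 2238 FPKM in A-iSC, 607 to 657 in P56-NSC, 1040.2 to 1136 in P0-NSC and 3056 to 3995 in AST, so the sums of the P56-NSC libraries, labelled as progenitors, were lowest. Vim alone averaged 1038 ± 264 FPKM in A-iSC, 41.4 ± 5.32 in P56-NSC, 142 ± 27.0 in P0-NSC and 2186 ± 466 in AST. By gene, of 13 measured, 5 were called higher and 5 lower in A-iSC than in AST, beside 28.1% and 30.8% of all genes tested. The counts were 4 and 9 in P56-NSC against AST, and 7 and 6 in P0-NSC against AST. Oligodendrocyte markers (12 genes) summed to 12012 to 13669 FPKM in P56-NSC, against 213 to 233 in A-iSC, 79.0 to 122 in P0-NSC and 124 to 147 in AST, where Mobp was listed at 0. Red blood cell genes (7 genes) summed to 360.0 to 565 FPKM in P56-NSC and 163 to 338 in P0-NSC, against 0.0512 to 0.575 in A-iSC and 0.194 to 0.424 in AST. Fibroblast and mural markers (10 genes) were highest in AST, with 34.8 to 67.7 FPKM in A-iSC, 16.8 to 32.4 in P56-NSC, 171 to 175 in P0-NSC and 1892 to 2287 in AST. Mitochondrial genes took 16.5% to 17.6% of reads in P56-NSC and 2.94% to 7.03% in the other 9 libraries.

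**Figure D1:**
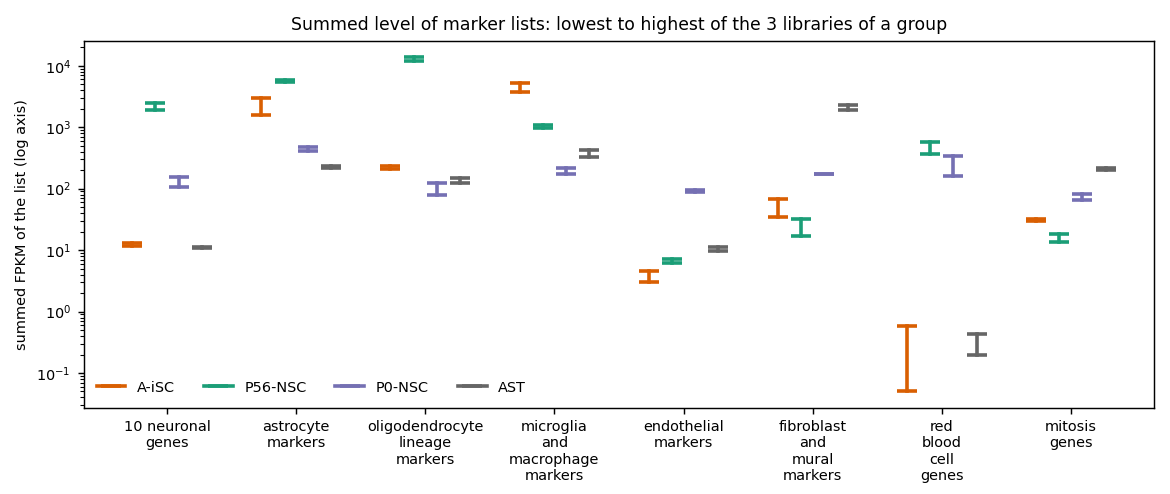
Summed FPKM (vertical log axis) of the 10 neuronal genes and of 7 marker lists, with the lowest and highest of the 3 libraries of each group as the ends of a bar. The 10 genes sum to 1872 to 2435 in P56-NSC, where oligodendrocyte markers sum to 12012 to 13669, and to 11.6 to 13.0 in A-iSC and 10.6 to 11.1 in AST.

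**Figure D2:**
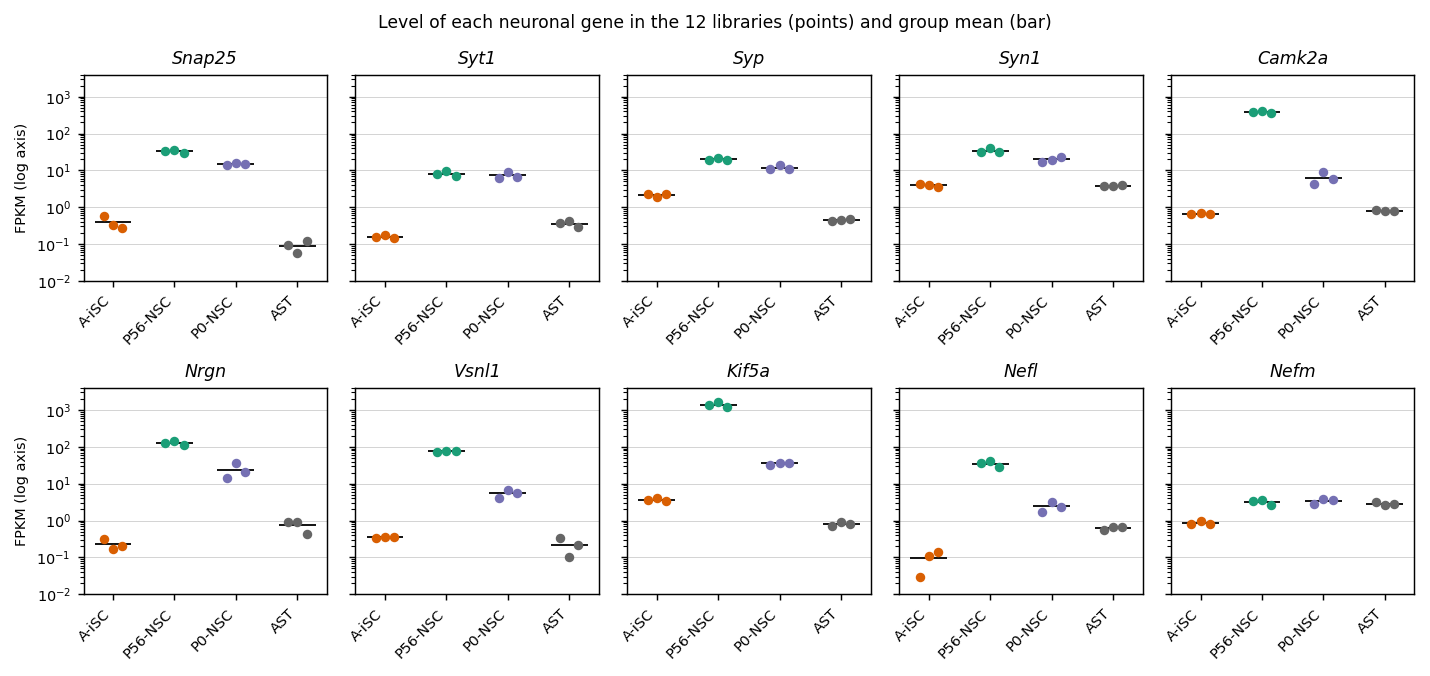
FPKM (vertical log axis) of each of the 10 genes in the 12 libraries, as points, with the mean of each group of 3 as a bar. In 9 of the 10 panels the P56-NSC and P0-NSC points lie above all A-iSC and AST points, and in the panel of Nefm only A-iSC stands apart, below the other groups. The share of all genes tested with such a separation was not counted.

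Summed over the 10 genes, the level was 11.6 to 13.0 FPKM in A-iSC, 1872 to 2435 in P56-NSC, 108 to 154 in P0-NSC and 10.6 to 11.1 in AST. Kif5a and Camk2a carried most of the P56-NSC sum. Taken singly, 9 genes were higher in every P56-NSC and P0-NSC library than in every A-iSC and AST library, and Nefm was not. The share of all genes tested with such a separation was not counted. Of these 9 genes, Snap25, Syt1, Camk2a, Nrgn, Nefl and Vsnl1 passed the filter through the NSC libraries alone, which favoured it. In order of group means, P56-NSC was followed by P0-NSC, A-iSC and AST for 5 genes (Snap25, Syp, Kif5a, Vsnl1 and Syn1), and by P0-NSC, AST and A-iSC for 4 (Syt1, Camk2a, Nrgn and Nefl). For Nefm the order was P0-NSC, P56-NSC, AST and A-iSC. Neighbours in these orders did not differ past the threshold between P56-NSC and P0-NSC for Syt1 and Nefm, between P56-NSC and AST for Nefm, and between A-iSC and AST for Syt1, Camk2a, Nrgn, Vsnl1 and Syn1.

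Of the release genes, Snap25 had 0.577, 0.328 and 0.269 FPKM in the A-iSC libraries, 34.4, 36.3 and 30.4 FPKM in P56-NSC, 13.6, 16.0 and 14.9 FPKM in P0-NSC, and 0.0966, 0.0581 and 0.119 FPKM in AST. The 4 groups did not overlap, and the 2 NSC groups stood far above both cultures. The A-iSC values rest on 79, 53 and 49 reads and the AST values on 11, 8 and 15 reads, so both cultures were near the lower end of what these depths resolve. Snap25 was higher in A-iSC than in AST (0.392 ± 0.163 FPKM in A-iSC and 0.0912 ± 0.0308 in AST, mean ± SD, n = 3 each, a ratio of 4.29), with a log2 change of 0.34 ± 0.11 (SE) and a limma adjusted p of 0.0142. That call was lost without the library A-iSC 1, which held the highest of the 3 values (adjusted p 0.0614), and under quantile normalization (adjusted p 0.143). Snap25 was higher still in P56-NSC against AST (log2 change 4.99 ± 0.11, limma adjusted p 3.13e-12) and in P0-NSC against AST (3.86 ± 0.11, 3.97e-11).

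Syt1, the calcium sensor, had 0.155, 0.177 and 0.148 FPKM in the A-iSC libraries, 8.11, 9.41 and 7.09 FPKM in P56-NSC, 6.23, 8.91 and 6.83 FPKM in P0-NSC, and 0.372, 0.420 and 0.291 FPKM in AST. Both cultures stayed below 0.5 FPKM, and the P56-NSC and P0-NSC values overlapped. Syt1 averaged 0.160 ± 0.0151 FPKM in A-iSC and 0.361 ± 0.0654 FPKM in AST; the A-iSC values lay below the AST values without overlap, but the log2 change of -0.23 ± 0.12 was not called (limma adjusted p 0.134). It was called at a pseudocount of 0.5 (adjusted p 0.0351) and of 0.1 (adjusted p 0.00174). P56-NSC exceeded AST by 2.75 ± 0.12 log2 units (limma adjusted p 1.35e-09) and P0-NSC exceeded AST by 2.60 ± 0.12 (3.19e-09).

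Syp, the vesicle membrane protein, had 2.23, 1.84 and 2.23 FPKM in the A-iSC libraries, 19.2, 21.2 and 19.2 FPKM in P56-NSC, 10.7, 13.7 and 10.9 FPKM in P0-NSC, and 0.412, 0.454 and 0.465 FPKM in AST. No groups overlapped. In A-iSC the mean was 4.73 times that of AST (log2 change 1.10 ± 0.10, limma adjusted p 2.35e-06). The P56-NSC mean was 44.8 times the AST mean (log2 change 3.85 ± 0.10, limma adjusted p 1.81e-11), and the log2 change of A-iSC was -2.75 against P56-NSC and -2.03 against P0-NSC (limma adjusted p 5.09e-10 and 6.93e-09).

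Syn1, which tethers vesicles, had 4.196, 4.12 and 3.51 FPKM in the A-iSC libraries, 30.9, 39.7 and 31.6 FPKM in P56-NSC, 17.0, 19.7 and 23.1 FPKM in P0-NSC, and 3.72, 3.68 and 4.05 FPKM in AST. It was the only one of the 10 genes above 3 FPKM in all 6 culture libraries, and the A-iSC and AST values overlapped (3.94 ± 0.378 FPKM in A-iSC and 3.82 ± 0.202 in AST, log2 change 0.03 ± 0.12, limma adjusted p 0.836). The NSC groups lay above both cultures, with log2 changes against AST of 2.86 ± 0.12 in P56-NSC (limma adjusted p 9.81e-10) and 2.11 ± 0.12 in P0-NSC (1.84e-08). Timp1, a secreted protease inhibitor that lies within the Syn1 span, was at 34.2 to 52.4 FPKM in A-iSC, 0.140 to 0.273 in P56-NSC, 1.35 to 2.02 in P0-NSC and 309 to 423 in AST, and its part in the Syn1 level of the cultures was not tested.

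Camk2a had 0.658, 0.676 and 0.645 FPKM in the A-iSC libraries, 382, 419 and 372 FPKM in P56-NSC, 4.34, 9.17 and 5.70 FPKM in P0-NSC, and 0.823, 0.793 and 0.801 FPKM in AST. The kinase subunit set P56-NSC apart from every other group: its mean there was 486 times that of AST (log2 change 7.76 ± 0.18, limma adjusted p 5.43e-12) and 61.1 times that of P0-NSC (5.78 ± 0.18, 1.11e-10). P0-NSC exceeded AST by a log2 change of 1.98 ± 0.18 (limma adjusted p 7.16e-07). A-iSC and AST differed by -0.12 ± 0.18 log2 units and were not called apart (limma adjusted p 0.582), although their values did not overlap.

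Nrgn, the calmodulin-binding protein of spines, had 0.307, 0.174 and 0.205 FPKM in the A-iSC libraries, 127, 146 and 115 FPKM in P56-NSC, 14.2, 35.8 and 20.2 FPKM in P0-NSC, and 0.903, 0.916 and 0.445 FPKM in AST. P56-NSC was highest and P0-NSC had the largest spread of the 4 groups relative to its mean, with P0-NSC 2 above the other two. In the cultures Nrgn rested on 9, 6 and 8 reads in A-iSC and 22, 27 and 12 reads in AST, and the log2 change of -0.50 ± 0.25 was not called (limma adjusted p 0.105). Without P0-NSC 2, whose values enter only the shared estimate of spread, the same change was called (adjusted p 0.0162), as it was without P0-NSC 1 (0.0437), and as it was at a pseudocount of 0.1 (adjusted p 0.00349). Against AST, Nrgn was higher by 6.22 ± 0.25 log2 units in P56-NSC (limma adjusted p 4.96e-10) and by 3.71 ± 0.25 in P0-NSC (6.01e-08).

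Vsnl1, the calcium sensor of the cytosol, had 0.330, 0.366 and 0.362 FPKM in the A-iSC libraries, 73.9, 78.7 and 76.4 FPKM in P56-NSC, 4.04, 6.78 and 5.51 FPKM in P0-NSC, and 0.335, 0.101 and 0.220 FPKM in AST. A-iSC and AST overlapped, with 13, 17 and 19 reads in A-iSC and 11, 4 and 8 in AST, and their log2 change of 0.15 ± 0.14 was not called (limma adjusted p 0.354). The P56-NSC mean was 14.0 times the P0-NSC mean (log2 change 3.61 ± 0.14, limma adjusted p 6.18e-10) and 349 times the AST mean (5.99 ± 0.14, 5.43e-12).

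Kif5a, the neuronal motor, had 3.54, 4.21 and 3.31 FPKM in the A-iSC libraries, 1328, 1641 and 1189 FPKM in P56-NSC, 32.9, 37.3 and 35.9 FPKM in P0-NSC, and 0.700, 0.896 and 0.824 FPKM in AST. It had the highest level per length of the 10 genes in P56-NSC and in P0-NSC, and the 4 groups did not overlap. The P56-NSC mean was 1718 times the AST mean (log2 change 9.57 ± 0.12, limma adjusted p 6.45e-14) and 39.2 times the P0-NSC mean (5.24 ± 0.12, 1.31e-11). Kif5a was also higher in A-iSC than in AST, 4.57 times (3.69 ± 0.467 FPKM in A-iSC and 0.807 ± 0.0993 in AST, log2 change 1.37 ± 0.12, limma adjusted p 1.43e-06).

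Nefl, the light neurofilament chain, had 0.0294, 0.112 and 0.143 FPKM in the A-iSC libraries, 35.6, 40.6 and 28.3 FPKM in P56-NSC, 1.71, 3.20 and 2.32 FPKM in P0-NSC, and 0.547, 0.671 and 0.653 FPKM in AST. A-iSC was lowest, on 2, 9 and 13 reads against 31, 46 and 41 reads in AST, and did not overlap any group. Its log2 change against AST was -0.57 ± 0.16 (limma adjusted p 0.00838), a call lost in both subsets of culture libraries whose FPKM lean alike with gene length. The log2 change was -0.64 for A-iSC 1 and A-iSC 2 against AST 2 (adjusted p 0.0625) and -0.48 for A-iSC 3 against AST 1 and AST 3 (0.144); each fit has a lone library in 1 group, whose spread is taken from the rest. P56-NSC exceeded AST by 4.45 ± 0.16 log2 units (1.70e-10) and P0-NSC exceeded AST by 1.05 ± 0.16 (7.23e-05), all by limma.

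Nefm, the medium chain, had 0.824, 0.967 and 0.781 FPKM in the A-iSC libraries, 3.46, 3.52 and 2.59 FPKM in P56-NSC, 2.87, 3.75 and 3.72 FPKM in P0-NSC, and 3.19, 2.70 and 2.77 FPKM in AST. P56-NSC, P0-NSC and AST overlapped, and every A-iSC library lay below every other library. Nefm was lower in A-iSC, with a log2 change of -1.06 ± 0.12 against AST (limma adjusted p 9.41e-06), -1.17 ± 0.12 against P56-NSC (3.00e-06) and -1.25 ± 0.12 against P0-NSC (1.41e-06). The log2 change was 0.10 ± 0.12 in P56-NSC against AST (limma adjusted p 0.432) and 0.19 ± 0.12 in P0-NSC against AST (0.156); neither was called. The 2 chains, which assemble together in axons, were unequal: Nefl over Nefm was 0.112 ± 0.0742 in A-iSC, 10.9 ± 0.605 in P56-NSC, 0.690 ± 0.142 in P0-NSC and 0.219 ± 0.0415 in AST (ratio of FPKM, mean ± SD, n = 3 each).

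A-iSC against AST sets the 5-day spheres against the cells they were grown from. There 3 of the 10 genes were higher (Snap25, Syp and Kif5a) and 2 lower (Nefl and Nefm), beside 28.1% of all genes tested called higher and 30.8% called lower, 58.9% in all. These shares lie near the background in both directions. Their median log2 change was -0.04, and that of all genes tested was 0. Libraries differed in how FPKM leaned with gene length: in the fit of A-iSC 3 against AST 1 and AST 3, which lean alike, Syp (1.17), Kif5a (1.29) and Nefm (-1.16) were called, while Nefl (-0.48) and Snap25 (0.20, adjusted p 0.212) were not. That fit has a single A-iSC library and takes its spread from the other groups, so lean and lost replication cannot be told apart in it. Microglia and macrophage markers (12 genes) summed to 3721 to 5172 FPKM in A-iSC and 327 to 429 in AST, and mitosis genes (12 genes) to 30.2 to 32.6 in A-iSC and 201 to 215 in AST. The fibroblast and mural sums given above were lower in A-iSC as well, with the smooth muscle actin gene Acta2 at 41.6 ± 16.6 FPKM in A-iSC and 1848 ± 231 in AST. The part of these 3 lists in the calls was not tested.

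**Figure D3:**
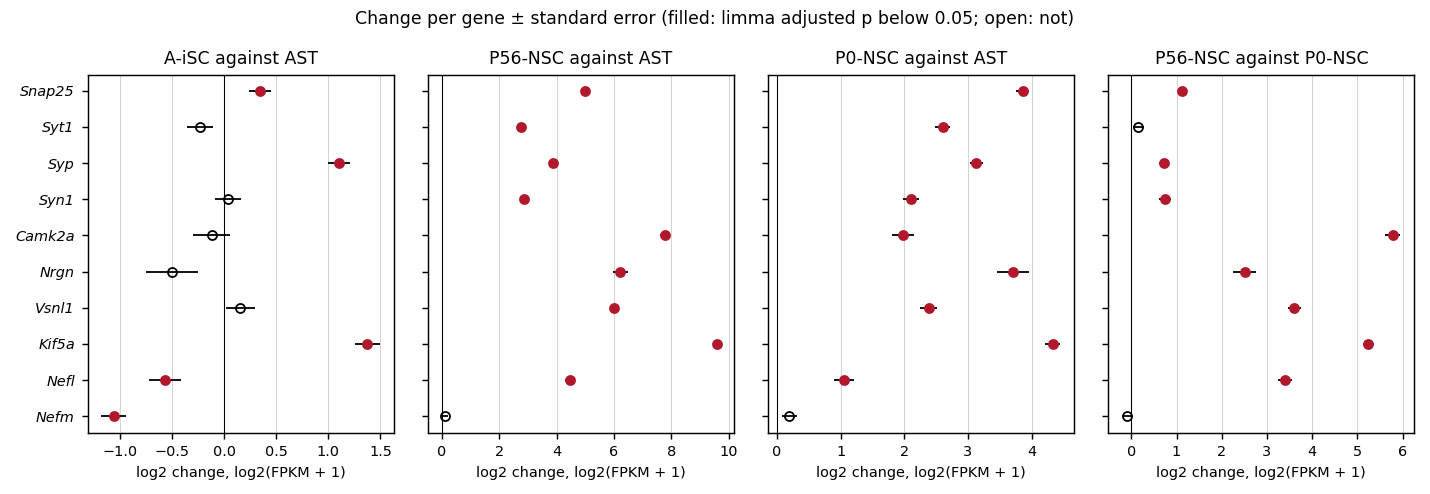
Log2 change (horizontal axis, difference of mean log2(FPKM + 1), each panel on its own scale) with its standard error for the 10 genes in 4 comparisons, 3 libraries per group; filled points have a limma adjusted p below 0.05. A-iSC against AST runs from -1.06 (Nefm) to 1.37 (Kif5a), and P56-NSC against AST from 0.10 (Nefm) to 9.57 (Kif5a).

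Neuronal lists around these genes held calls in both directions in A-iSC against AST, where 28.1% of all genes tested were higher and 30.8% lower. Of 32 measured vesicle and release genes 19 were higher and 3 lower, with a median log2 change of 0.37. Syngr1, a synaptogyrin of vesicle membranes, averaged 19.6 ± 2.48 FPKM in A-iSC and 3.50 ± 0.5001 in AST (log2 change 2.19, limma adjusted p 6.35e-08). Axonal cytoskeleton genes were higher for 10 and lower for 2 of 19, with a median of 0.31. The tau gene Mapt averaged 7.20 ± 1.91 FPKM in A-iSC and 0.595 ± 0.116 in AST (log2 change 2.34, limma adjusted p 5.14e-08), while Stmn2, a tubulin-binding protein of growing axons, averaged 7.16 ± 1.65 FPKM in A-iSC and 53.8 ± 11.2 in AST and was lower (-2.75, 8.70e-08).

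Postsynaptic genes were higher for 8 and lower for 6 of 27, with a median of 0.05, and included the glutamate receptor subunits Gria2, higher at 3.32 ± 0.744 FPKM in A-iSC against 1.05 ± 0.0584 in AST (log2 change 1.06, limma adjusted p 1.71e-04), and Gria3, lower at 4.15 ± 0.754 in A-iSC against 15.9 ± 2.47 in AST (-1.71, 7.58e-07). Transport genes were higher for 5 and lower for 4 of 16 (median -0.04). The postsynaptic and transport counts lie near the 28.1% higher and 30.8% lower of all genes tested. Genes of neuron excitability and identity were higher for 10 and lower for 5 of 23 (median 0.12): the secretory granule protein gene Scg3 was higher, 65.9 ± 6.39 FPKM in A-iSC against 8.54 ± 0.702 in AST (2.81, 1.08e-09), and the surface glycoprotein gene Thy1 lower, 8.62 ± 1.77 in A-iSC against 48.8 ± 3.58 in AST (-2.38, 5.28e-08). Immature neuron genes were higher for 9 and lower for 2 of 22 (median 0.14), among them the microtubule protein gene Dcx at 2.86 ± 0.185 FPKM in A-iSC against 0.0833 ± 0.0245 in AST (1.83, 1.34e-08), all adjusted p from limma.

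P56-NSC against AST asks how a positive control stands above the starting cells. Here 9 of the 10 genes were higher and 0 lower, all but Nefm, beside 37.1% of all genes called higher and 37.0% lower, 74.1% in all. In every AST library 8 of the 10 and 22 of the 36 listed vesicle genes were under 1 FPKM, which left little room for lower calls. The median log2 change of the 10 was 4.72, and that of all genes tested was 0.00 to 2 decimals. Every one of the 32 measured vesicle genes was called higher (median 2.29), with the complexin gene Cplx1, a clamp of the SNARE complex, at 96.8 ± 18.4 FPKM in P56-NSC against 0.273 ± 0.109 in AST (log2 change 6.25, limma adjusted p 2.36e-12). Postsynaptic genes were higher for 21 and lower for 1 of 27 (median 1.61), and the scaffold gene Shank1 averaged 35.3 ± 4.81 FPKM in P56-NSC and 0.0358 ± 0.00895 in AST (5.12, 2.54e-11). Transport genes were higher for 14 and lower for 0 of 16 (median 2.07), axonal cytoskeleton genes higher for 15 and lower for 4 of 19 (median 2.31), and excitability genes higher for 20 and lower for 2 of 23 (median 2.03). Hpcal4, a relative of Vsnl1, averaged 142 ± 11.1 FPKM in P56-NSC and 0.0515 ± 0.0151 in AST (7.08, 3.54e-12). The oligodendrocyte, red blood cell, fibroblast and mitochondrial values given above move with the same contrast, and their part cannot be told apart from that of the groups.

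P0-NSC against AST gave calls in the same 9 genes, all higher, and 0 lower, beside 35.9% of all genes higher and 38.3% lower, 74.2% in all. The median log2 change of the 10 was 2.49, and that of all genes was -0.04. The 2 comparisons share the AST libraries, so the like count is not independent, and the low AST levels left little room for lower calls here too. Changes ran from 1.05 ± 0.16 for Nefl to 4.33 ± 0.12 for Kif5a among the called genes. Vesicle genes were higher for 31 and lower for 0 of 32 (median 2.28), postsynaptic genes higher for 24 and lower for 2 of 27 (median 1.49), and immature neuron genes higher for 21 and lower for 0 of 22 (median 3.34). The neuronal transcription factor gene Neurod2 averaged 84.4 ± 11.5 FPKM in P0-NSC and was listed at 0 in the 3 AST libraries (limma adjusted p 1.60e-12). The tau gene Mapt averaged 125 ± 9.01 FPKM in P0-NSC and 0.595 ± 0.116 in AST (log2 change 6.30, limma adjusted p 1.09e-11). Axonal cytoskeleton genes were higher for 17 and lower for 2 of 19 (median 2.55). Endothelial markers (10 genes) summed to 87.3 to 94.6 FPKM in P0-NSC and 9.82 to 11.05 in AST, and their part, like that of the red blood cell, fibroblast and mural genes, was not tested.

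**Figure D4:**
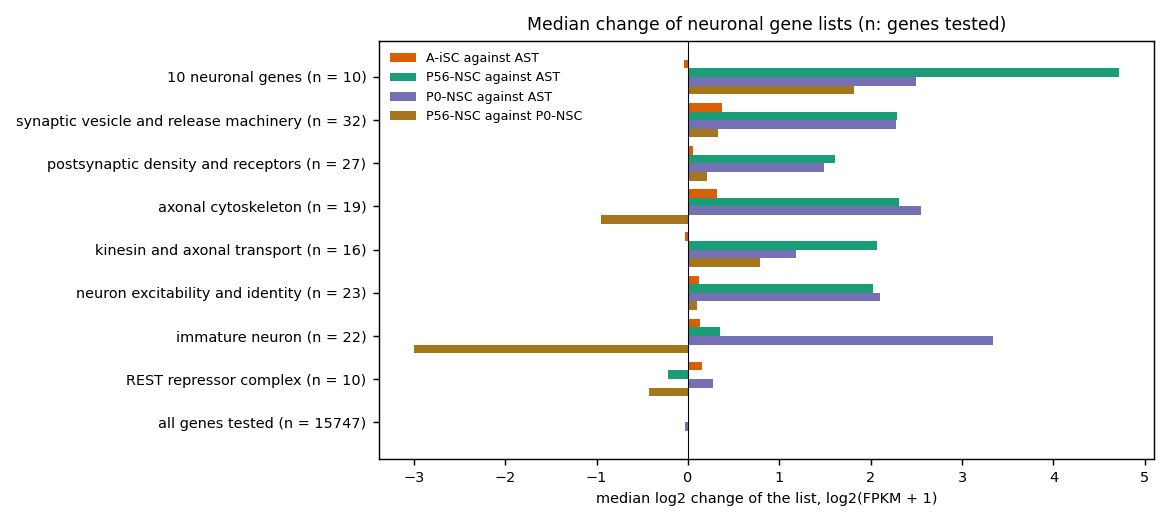
Median log2 change (horizontal axis, log2(FPKM + 1)) of the 10 genes, of 7 lists of neuronal and repressor genes and of all genes tested, in 4 comparisons, as bars from 0. The 10 genes stand at -0.04, 4.72, 2.49 and 1.82 for A-iSC, P56-NSC and P0-NSC against AST and for P56-NSC against P0-NSC, while the immature neuron list is at 3.34 for P0-NSC against AST and at -2.99 for P56-NSC against P0-NSC.

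A-iSC against the 2 positive controls compares the spheres with brain-derived cells. All 10 genes were lower in A-iSC than in P56-NSC, beside 31.5% of all genes called higher and 31.3% called lower, 62.9% in all, with log2 changes between -8.20 ± 0.12 for Kif5a and -1.17 ± 0.12 for Nefm and a median of -4.83. All 10 were also lower in A-iSC than in P0-NSC, beside 32.6% of all genes higher and 34.7% lower, 67.3% in all, between -4.22 ± 0.25 for Nrgn and -1.25 ± 0.12 for Nefm with a median of -2.17. The median of all genes tested was 0.03 against P56-NSC and -0.01 against P0-NSC. The genes that had been called higher in A-iSC than in AST stayed far from the NSC levels: Kif5a was at 3.69 ± 0.467 FPKM in A-iSC, against 1386 ± 231 in P56-NSC and 35.4 ± 2.21 in P0-NSC. Of the vesicle list 0 were higher and 30 lower of 32 against P56-NSC (median -2.01), and 1 higher and 28 lower against P0-NSC (median -2.10). In every A-iSC library 7 of the 10 genes and 16 of the 36 listed vesicle genes were under 1 FPKM, which left little room for calls higher in A-iSC. Genes that passed the filter through the NSC libraries alone favoured lower calls here. Both comparisons share the A-iSC libraries, so their like counts are not independent.

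P56-NSC against P0-NSC compares the positive controls with each other. Of the 10 genes 8 were higher in P56-NSC and 0 lower, beside 35.3% of all genes called higher and 33.9% lower, 69.2% in all. Their median log2 change was 1.82, and that of all genes 0.00. The sizes ranged widely. The motor, the kinase, the calcium sensor and the light neurofilament chain changed most, with log2 changes of 5.78 for Camk2a, 5.24 for Kif5a, 3.61 for Vsnl1 and 3.40 for Nefl (largest limma adjusted p 3.59e-09). Nrgn followed at 2.51 ± 0.25 (2.63e-06). Among the release genes the log2 changes were 1.13 ± 0.11 for Snap25 (1.46e-06), 0.75 ± 0.12 for Syn1 (1.97e-04) and 0.72 ± 0.10 for Syp (5.63e-05), and Syt1 was not called (0.15 ± 0.12, 0.302), all by limma. Without P0-NSC 2 Syt1 was called higher (adjusted p 0.0451). Differences in size between the release genes and the others were not tested. The oligodendrocyte sums and mitochondrial shares given above differ between the same groups, and their part cannot be told apart from that of the groups.

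Scaled by total reads instead, which shifts the median of all genes by -0.45 in this comparison, Syp and Syn1 were no longer called (log2 changes 0.12 and 0.14, adjusted p 0.287 each). In the same scaling Syt1 (-0.41, adjusted p 0.00953) and Nefm (-0.56, adjusted p 7.59e-04) were called lower, so the direction for Syt1 depends on the scaling, while Camk2a, Kif5a, Vsnl1, Nefl, Nrgn and Snap25 were called higher under every setting run. Around the members, immature neuron genes were higher for 1 and lower for 18 of 22 (median -2.99), and Neurod1, a transcription factor of new neurons, averaged 0.140 ± 0.0147 FPKM in P56-NSC and 66.1 ± 6.98 in P0-NSC (log2 change -5.87, limma adjusted p 7.37e-13). Axonal cytoskeleton genes were higher for 6 and lower for 11 of 19 (median -0.95), with the tubulin gene Tuba4a higher, at 33.8 ± 3.49 FPKM in P56-NSC against 1.53 ± 0.335 in P0-NSC (3.79, 1.02e-10) and the growth cone gene Dpysl3 lower, at 10.04 ± 1.57 in P56-NSC against 241 ± 17.2 in P0-NSC (-4.46, 2.86e-11). Transport genes were higher for 9 and lower for 4 of 16 (median 0.79). Vesicle genes were higher for 15 and lower for 8 of 32 (median 0.33): the GABA and glycine transporter gene Slc32a1 was higher in P56-NSC, at 19.6 ± 0.508 FPKM against 3.46 ± 0.504 in P0-NSC (2.22, 1.84e-09), and the glutamate transporter gene Slc17a6 lower, at 1.46 ± 0.811 in P56-NSC against 8.22 ± 0.470 in P0-NSC (-1.96, 1.41e-06).

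In the kinesin and kinase families, and in the pair of Snap25 and Snap23, the neuronal gene was the main one in P56-NSC and a minor one in both cultures. Kif5a made up 12.5% ± 5.14 of the summed FPKM of the 3 kinesin-1 heavy chains in A-iSC, 79.0% ± 1.49 in P56-NSC, 23.2% ± 0.192 in P0-NSC and 1.502% ± 0.440 in AST (mean ± SD, n = 3 each). The chain found in all cells, Kif5b, held 68.5% ± 8.13 in A-iSC and 73.1% ± 1.61 in AST, and Kif5c, another neuron-enriched chain, held 62.3% ± 0.304 in P0-NSC. While Kif5a was higher in A-iSC than in AST, Kif5c was lower, at 5.92 ± 1.11 FPKM in A-iSC against 14.0 ± 1.75 in AST (log2 change -1.12 ± 0.13, limma adjusted p 1.29e-05). Kif5b was lower too, at 23.0 ± 11.4 FPKM in A-iSC against 40.6 ± 7.57 in AST (-0.88 ± 0.25, 0.00973), a call lost under quantile normalization (log2 change -0.55, adjusted p 0.0972) and with the 2 groups alone, where the change was the same and its estimated spread was not (-0.88, 0.0669). For A-iSC 3 against AST 1 and AST 3 it was -0.31 (0.0189).

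Camk2a made up 3.78% ± 0.0479 of the 4 kinase II subunits in A-iSC, 89.2% ± 0.643 in P56-NSC, 8.90% ± 2.58 in P0-NSC and 2.77% ± 0.0859 in AST. In P0-NSC the beta subunit gene Camk2b held 63.9% ± 1.43, and in the cultures the gamma subunit gene Camk2g held 60.8% ± 4.38 in A-iSC and 63.6% ± 0.465 in AST. Camk2b ran against Camk2a between the NSC groups, at 18.4 ± 2.42 FPKM in P56-NSC and 45.1 ± 3.44 in P0-NSC (log2 change -1.25 ± 0.11, limma adjusted p 8.85e-07). Of Snap25 and its widely expressed relative Snap23, Snap25 held 3.47% ± 2.03 in A-iSC, 81.2% ± 2.43 in P56-NSC, 73.9% ± 1.34 in P0-NSC and 0.832% ± 0.211 in AST, and the means of the 2 NSC groups lay within 10 percentage points of each other. The relatives Snap29 and Snap47 are left out of this share. Snap47 averaged 33.8 ± 0.816 FPKM in P56-NSC and 49.3 ± 4.87 in P0-NSC, against 33.7 ± 2.99 and 14.9 ± 1.20 for Snap25.

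Other families of the 10 genes were divided differently. Syt1 held 0.128% ± 0.0448 of the synaptotagmins in A-iSC, 3.19% ± 0.251 in P56-NSC, 4.95% ± 0.525 in P0-NSC and 0.607% ± 0.170 in AST, and Syt11, a synaptotagmin that does not bind calcium, led in every group, with 69.5% ± 2.02 in P56-NSC. Vsnl1 held 18.1% ± 1.18 of its family in P56-NSC, less than Hpcal4 with 33.4% ± 0.430, and 6.74% ± 1.56 in P0-NSC. Syn1 was a large part of the synapsins in the cultures too, at 61.4% ± 2.61 in A-iSC, 69.4% ± 3.41 in P56-NSC, 62.3% ± 3.03 in P0-NSC and 48.9% ± 3.20 in AST. Syp held 18.3% ± 2.72 of the synaptophysin family in A-iSC, 48.5% ± 4.22 in P56-NSC, 55.5% ± 3.69 in P0-NSC and 3.67% ± 0.540 in AST, where its widely expressed relative Sypl held 95.3% ± 0.635.

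Among the 5 neuronal intermediate filament genes, Nefl led in P56-NSC with 57.8% ± 1.46, alpha-internexin (Ina) led in P0-NSC with 87.0% ± 2.60 and in A-iSC with 46.2% ± 8.27, and Nefm led in AST with 66.1% ± 4.88. Ina averaged 14.2 ± 1.26 FPKM in P56-NSC and 51.1 ± 11.5 in P0-NSC (log2 change -1.76 ± 0.19, limma adjusted p 6.35e-06), and the heavy chain gene Nefh went the other way, 7.71 ± 2.03 in P56-NSC against 0.958 ± 0.0356 in P0-NSC (2.13 ± 0.13, 5.06e-08). Ina was higher in A-iSC than in AST, 1.73 ± 0.800 FPKM in A-iSC against 0.514 ± 0.127 in AST (0.81 ± 0.19, 0.00352), a call lost for A-iSC 3 alone against AST 1 and AST 3 (0.49, adjusted p 0.0831), the fit in which Nefl lost its call too.

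**Figure D5:**
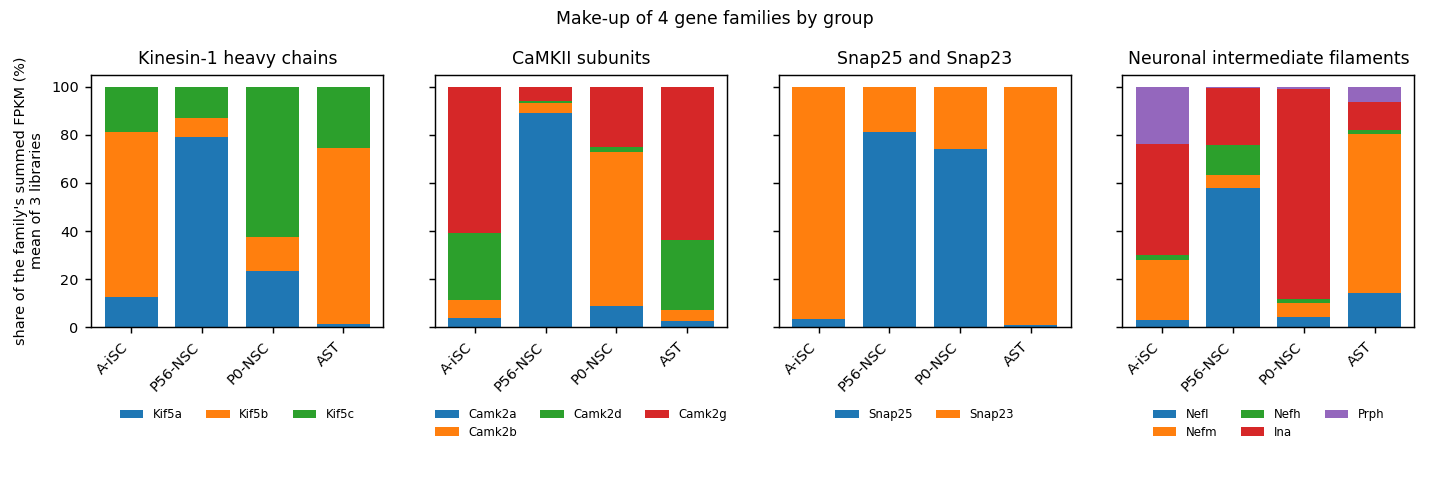
Share of each gene (vertical axis, percent of the family's summed FPKM, mean of 3 libraries per group) in 4 families that hold a neuronal gene of the 10, with Snap25 set beside Snap23 only. Kif5a and Camk2a take 79.0% and 89.2% of their families in P56-NSC, and Kif5c and Camk2b take 62.3% and 63.9% in P0-NSC.

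Replicates of the brain-derived groups were ordered alike across genes. All 10 genes were highest in P56-NSC 2 of the P56-NSC libraries, and 7 were lowest in P56-NSC 3. Among the P0-NSC libraries all 10 were lowest in P0-NSC 1, and 9, all but Syn1, were highest in P0-NSC 2. In log2 units P0-NSC 2 lay 0.36 above the other two at the median of the 10 genes, beside 0.00 over all genes tested, and P0-NSC 1 differed from the other two by -0.30, beside -0.01. In A-iSC and AST no library was highest for more than 5 of the 10. Oligodendrocyte markers summed to 79.0, 122 and 98.9 FPKM in P0-NSC 1, 2 and 3 and to 12398, 12012 and 13669 FPKM in P56-NSC 1, 2 and 3, so the same order was seen in P0-NSC and not in P56-NSC. Neuron excitability and identity genes followed the order in both groups, at 376, 420 and 392 FPKM in P0-NSC and 667, 730 and 634 in P56-NSC. Microglia and macrophage markers followed it in P0-NSC only, immature neuron genes in P56-NSC only, and red blood cell genes in neither. The departure of a library from its group mean also leaned with gene length. Spearman r was 0.0471, 0.145 and -0.175 in P56-NSC 1, 2 and 3, and 0.00164, 0.119 and -0.128 in P0-NSC 1, 2 and 3. The part of what these lists reflect and of this lean in the spread was not tested.

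The genes whose pattern was most like the mean pattern of the 10 were sought among 6839 named genes at 10 FPKM or more in the highest group, by Pearson r over the 12 libraries, which fall into 4 groups and share depth and scaling. The most alike were the adenylate cyclase gene Adcy5 (r = 0.998), Cdk5r2, an activator of the kinase Cdk5 (r = 0.997), and the G protein gene Gnal (r = 0.997). Adcy5 averaged 2.06 ± 0.0764 FPKM in A-iSC, 42.3 ± 8.08 in P56-NSC, 13.1 ± 2.11 in P0-NSC and 2.38 ± 0.251 in AST. Among the 10 most alike were also the postsynaptic scaffold gene Dlg2, the vesicle genes Rph3a and Slc17a7, the potassium channel subunit gene Kcnip2, and Bend6, Nrip3 and Resp18, the last of these at r = 0.993. Between the members themselves r had a median of 0.932 over 45 pairs and ran between 0.434 and 0.995.

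The repressor gene Rest was lowest in P56-NSC, where all of the 10 genes but Nefm had their highest mean. It averaged 5.95 ± 0.396 FPKM in A-iSC, 2.10 ± 0.216 in P56-NSC, 5.85 ± 0.538 in P0-NSC and 8.38 ± 0.249 in AST. Its A-iSC and P0-NSC values overlapped, while all 10 genes were lower in A-iSC than in P0-NSC. The part of Rest in the levels of the 10 genes was not tested. Rest was lower in P56-NSC than in AST (-1.60 ± 0.09, limma adjusted p 9.53e-09) and than in P0-NSC (-1.14 ± 0.09, 3.27e-07), and lower in A-iSC than in AST (-0.43 ± 0.09, 0.00138). In P0-NSC against AST the log2 change was -0.46 ± 0.09 (6.19e-04), a call lost under scaling by total reads (adjusted p 0.0786). Of 10 measured genes of the repressor complex, A-iSC against AST had 4 higher and 3 lower (median 0.16), P56-NSC against AST 3 and 5 (median -0.22), and P0-NSC against AST 4 and 3 (median 0.27). Over all genes tested the shares higher and lower were 28.1% and 30.8%, 37.1% and 37.0%, and 35.9% and 38.3% in the same order. The counts of the complex lie not far from those shares. Rcor2, a corepressor that binds REST, averaged 2.82 ± 0.208 FPKM in A-iSC and 0.336 ± 0.0197 in AST (log2 change 1.51, limma adjusted p 1.65e-06), and 3.73 ± 0.784 in P56-NSC against 47.5 ± 7.11 in P0-NSC (-3.36, 1.11e-09).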

How the data were processed

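RNA of 12 mouse brain cell libraries (3 µg RNA each) was sequenced, per the labels' protocols, and groups were taken from the sample titles. The authors normalized the data and deposited FPKM per gene and library in a single table. Per the submitters' processing notes, the aligner was Bowtie (0.12.2) and the builds were mm8, mm9. The table's coordinates equal those of GENCODE M21 (GRCm38) for 99.54% of 55154 shared gene identifiers, and for the counting tool the sources used here give no name. Multiplied by gene length, 100% of values came to whole reads (tolerance 0.01). The totals that the FPKM imply were 0.744 to 1.22 times the recovered totals, so the authors' values carry a scaling between libraries. The 441 unnamed entries, 0.0957% to 0.156% of reads, were not tested. A single read in 1 kb of gene equals 0.0343 to 0.0623 FPKM, a precision for counting error only.

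Log2(FPKM + 1) was fitted with limma 3.58.1 in R 4.3.3, 1 mean per group over 12 libraries, variance trend on the mean, for the 15747 genes that reached 1 FPKM in 3 or more libraries; 6 comparisons were drawn, and calls needed a Benjamini-Hochberg adjusted p below 0.05. On simulated A-iSC and AST values (15747 genes, 200 changed), the fit recovered 71.6%, 92.5% and 100% of genes changed 1.5-, 2- and 4-fold, and 9.74% of its calls were unchanged genes. The changed genes were drawn at a mean of 1 FPKM or more in AST, with 1 fixed spread for all genes. In AST 8 of the 10 genes were under that level, and far more genes were called in the data. These rates therefore do not carry over to the 10 genes. No 2 libraries of a group differed by as little as counting noise (lowest chi-square per degree of freedom 2.43, highest 96.45 for A-iSC 1 and A-iSC 3). The 10 genes and the lists were chosen with earlier results of these data known. Of each list, at most 4 called genes of largest change per comparison were named, with relatives of the 10 genes and Rest; the genes of like pattern were the 10 of highest Pearson r. Alternatives tried were pseudocounts, filters, scalings, voom on recovered reads, no variance trend, the 2 groups alone, a replicate block, libraries with a like lean by gene length, and leaving out each library. Other work used matplotlib 3.10.9, pandas 2.3.3, scipy 1.17.1 and numpy 2.4.6 in Python 3.11.15. Promoter sequences are from RefSeq.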

Additional observations from a re-analysis of the deposited data

How the results depend on the processing

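Of 60 results (10 genes in 6 comparisons), 48 kept direction and side of the threshold under every alternative run. In A-iSC against AST the number of the 10 genes called was 5, and 3 among A-iSC 3, AST 1 and AST 3 with the NSC libraries. The number lower was 2, and 4 at a pseudocount of 0.1, at one of 0.5, under quantile normalization and with the 2 groups alone, when Syt1 and Nrgn were called too; it was 1 in both subsets of libraries with a like lean by gene length, each with 1 library in a group and the spread of the other groups, where Nefl stood at -0.64 and -0.48 against -0.57 in all libraries. In P56-NSC against P0-NSC the number lower was 0, and 2 under scaling by total reads. Log2 changes near 0 turned sign under quantile normalization for Vsnl1 (-0.0425) and Syn1 (-0.0298) in A-iSC against AST and for Nefm in P56-NSC against AST (-0.048). Syn1 turned to -0.12 among A-iSC 3, AST 1 and AST 3 and ran between -0.0036 and 0.0994 over the fits that leave out 1 library, lowest without A-iSC 1; Nefm turned to -0.15 under total reads in P56-NSC against AST and ran between -0.184 and 0.0199 over those fits in P56-NSC against P0-NSC, highest without P56-NSC 3. Syt1 turned to -0.41 under total reads in P56-NSC against P0-NSC, where leaving out P0-NSC 2 gave 0.28 (adjusted p 0.0451). Total reads also gave Nefm a call in P0-NSC against AST (0.42, adjusted p 0.00583). Scaling by total reads moved the median of all genes by 0.12 in A-iSC against AST, -0.24 in P56-NSC against AST, 0.20 in P0-NSC against AST and 0.40 in A-iSC against P56-NSC. The cause was not tested. The labels do not say whether replicate numbers pair libraries across groups. In their departures from group means, 3 of 18 same-numbered pairs correlated above 0.1, and 3 of 12 libraries correlated best with their own number. For A-iSC and AST, r was -0.395, 0.342 and 0.442 for numbers 1, 2 and 3. These departures also lean with gene length, so the correlations cannot decide whether libraries are paired. With the replicate number as a block, 5, 9, 9, 10, 10 and 8 of the 10 genes were called in A-iSC, P56-NSC and P0-NSC against AST, A-iSC against P56-NSC and P0-NSC, and P56-NSC against P0-NSC, as without it. Depth limits Snap25, Syt1, Nrgn, Nefl and Vsnl1 in the cultures and Syp in AST, where values rest on 2 to 79 reads.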
